A study of Homo sapiens with 93 samples.

Results

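The cytosolic ribosomal protein genes form the protein part of the ribosome outside mitochondria, and 60 of them were followed here among 14000 counted features. They were chosen by Ensembl identifier, as genes of the small subunit (RPS genes with RPSA) and of the large subunit (RPL and RPLP genes) that lie on autosomes. All 60 were in the table. Each had at least 10 counts in at least 47 of 93 libraries, as did 13915 features in all. H3K36me3, trimethylation of lysine 36 of histone H3, was measured in 93 lymphoblastoid lines (human B cells that Epstein-Barr virus has made grow without limit) by CUT&Tag, in which an antibody brings a transposase to chromatin and the cut DNA is sequenced. All lines were untreated and made up 1 group, with 1 library per line, so spread between libraries holds line, culture and technical differences together. Per the labels, lines were grown with 20% serum, 100000 cells were frozen per assay and libraries had 14 PCR cycles. Library totals ran from 2842955 to 24325746 counts, with a median of 14883653. Neither the files nor the reference table pairs identifiers with symbols (0 of 60 matched), so single members are given by identifier, and whether one belongs to the small or the large subunit was not used. Interval lengths were not used either. Values are therefore CPM per gene and not per length, and they are compared between lines rather than between genes.

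H3K36me3 is written by SETD2, which travels with elongating RNA polymerase II, so the mark lies over the bodies of transcribed genes. Ribosomal proteins are needed in matched amounts, and their genes are transcribed heavily in dividing cells, B cell lines included. Their messengers typically begin with a C and a run of pyrimidines, the terminal oligopyrimidine tract, through which mTOR signalling sets their translation. The genes also have many processed copies elsewhere in the genome. The sources used here do not say how reads with several matches were treated, so some counts could be shared with such copies.

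The start-site letters show a feature that the family has in common and that the choice of members did not use. RefSeq (GRCh38.p14) holds 73 autosomal protein-coding genes with symbols of this family, 30 of the small and 43 of the large subunit, and 71 of them had a start-site sequence. These were matched by symbol to the family, not to the 60 identifiers. A C followed by at least 4 bases that are C or T stood exactly at the RefSeq start, on the gene's strand, in 43 of 71 (60.6%), against 4.07% of all 35116 RefSeq starts. A tract of at least 5 bases whose C lay up to 10 bases from the start was present in 81.7% of the family and 32.5% of all starts. The RPSA and RPLP genes, the ones the choice of members names apart from the numbered series, are shown over the last 10 bases before the start and the first 20 of the gene, with the tract in capitals:
RPSA, chr3:39406710-39406739, plus strand: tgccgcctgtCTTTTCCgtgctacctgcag
RPLP0, chr12:120201092-120201121, minus strand: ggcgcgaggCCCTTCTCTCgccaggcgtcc
RPLP1, chr15:69452808-69452837, plus strand: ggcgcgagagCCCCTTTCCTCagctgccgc
RPLP2, chr11:809957-809986, plus strand: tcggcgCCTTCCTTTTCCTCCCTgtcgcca
The tracts had 7, 10, 11 and 17 bases. The letters are a description of the family in the reference, and H3K36me3 was not resolved at these positions.

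The 60 genes rose and fell together from line to line. The number of members above their own median CPM ran from 0 of 60 in the lowest line to 59 of 60 in the highest. In 26 of 93 lines at least 50 members were above their own median, and in 26 lines at most 10 were. Taken as the geometric mean of the members relative to their medians, the family ran from 0.677 to 1.57 between lines, a 2.31-fold span, and its SD was 0.26 on the log2 scale (n = 93). The summed CPM of the members ran from 1454 over a median of 2031 to 3060. The members together held 0.15% to 0.298% of a library's counts.

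Part of this movement followed library-wide properties, which were removed before the members were compared with each other. The dynamic range of a library is the gap in median log2 CPM between the 20% of features with the highest mean level and the 20% with the lowest. After log2 library total and dynamic range had been fitted and removed, the residual family mean still ran from -0.53 to 0.53 log2 between lines, with an SD of 0.19 (n = 93). On this scale at least 50 members were above their own median in 19 lines and at most 10 in 19 others.

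**Figure D1:**
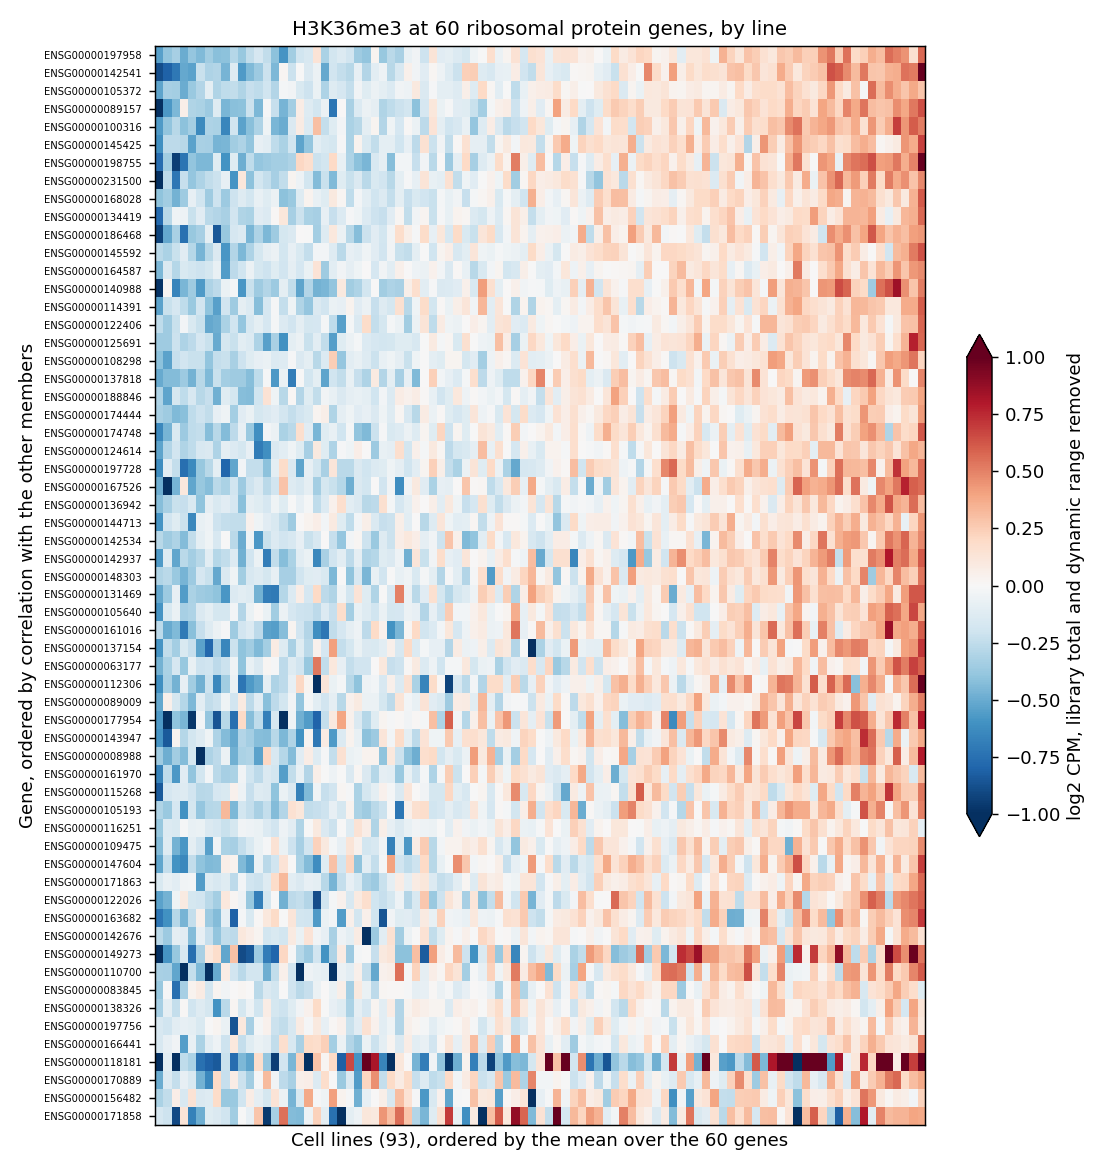
Residual log2 CPM (colour, library total and dynamic range removed) of the 60 ribosomal protein genes (rows, ordered by correlation with the mean of the other members) in the 93 lines (columns, ordered by the mean over the genes). Most rows run from low at the left to high at the right, while the bottom rows, ENSG00000170889, ENSG00000156482 and ENSG00000171858 (r from 0.448 to 0.235), do so least.

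Pairs of members had a mean Pearson correlation of 0.493 across lines on the residual scale, over 1765 pairs at least 20 rows apart in the table. The same mean was 0.00725 over all 96543912 such pairs of features. All 1765 member pairs were above 0, against 50.8% of all pairs. A correlation over 0.5 was seen in 52.2% of member pairs and 1.82% of all pairs. Pairs share their libraries and are not independent, so these values are descriptions. With no covariates the mean was 0.579 for members and 0.00389 for all features.

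Each member was then set against the mean of the other 59. The correlation ran from 0.235 to 0.886 with a median of 0.728, and it was over 0.5 for 57 of 60. Among the other 13855 features, the correlation with the mean of all 60 had a median of 0.031, and it was over 0.5 for 8.66%. The members' median was reached by 118 of them (0.852%).

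**Figure D2:**
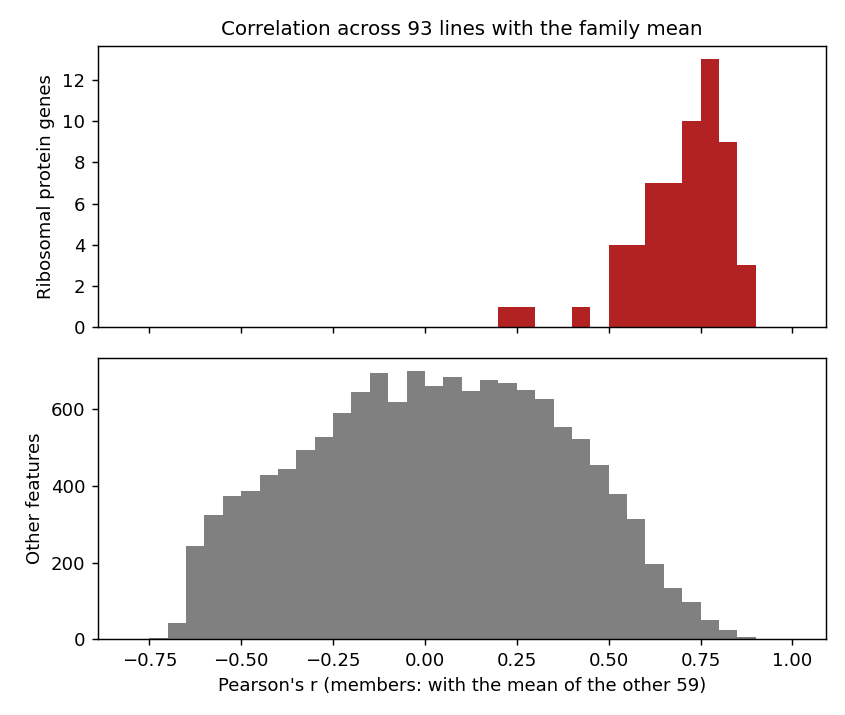
Number of ribosomal protein genes (top) and of other features (bottom) by Pearson's r across 93 lines with the family mean, on residual log2 CPM; members are set against the mean of the other 59. The members lie from 0.235 to 0.886, with 57 of 60 over 0.5, while the other features are spread around 0.031.

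The members that followed the family most closely were ENSG00000197958 (r = 0.886), ENSG00000142541 (0.882), ENSG00000105372 (0.874), ENSG00000089157 (0.845) and ENSG00000100316 (0.842). ENSG00000105372 had 54.3 CPM in its lowest line, a median of 85.3 and 135 in its highest. ENSG00000197958 had 30.5, 47.5 and 78.6 CPM in the same order, and ENSG00000142541 had 10.5, 20.2 and 45.8. The 3 closest pairs joined genes of this same group: ENSG00000100316 with ENSG00000197958 (r = 0.857), ENSG00000105372 with ENSG00000100316 (0.808) and ENSG00000105372 with ENSG00000197958 (0.807). These pairs lay 4409, 2091 and 6500 rows apart in the table. Nearer pairs, under 20 rows apart, did not enter the mean. There were 5, from 0.581 to 0.701, each above the mean of 0.493 over the pairs at least 20 rows apart. The adjacent rows ENSG00000142541 and ENSG00000142534 had 0.622.

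The members that followed it least were ENSG00000171858 (r = 0.235), ENSG00000156482 (0.26), ENSG00000170889 (0.448), ENSG00000118181 (0.506) and ENSG00000166441 (0.515). ENSG00000171858 was also the member with the fewest reads, with 3 to 81 counts per line and a median of 32. Low counts did not mark the next ones: ENSG00000156482 had 103 to 995 counts with a median of 529, and ENSG00000170889 128 to 1726 with a median of 695. ENSG00000156482 had 18 CPM in its lowest line, a median of 36.1 and 55.1 in its highest. It was in each of the 3 lowest pairs, with ENSG00000147604 (r = 0.00082), ENSG00000148303 (0.012) and ENSG00000138326 (0.0195). ENSG00000118181 and ENSG00000166441 lie in a stretch of the table with a shift in counts, described further on.

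The mean correlation of member pairs was also taken by level and by depth. Over members in the 4 lower quintiles of mean level it was 0.399, 0.551, 0.524 and 0.442, where all features of the same quintiles had 0.00249 to 0.0137; the top quintile held 1 member. In the 46 shallower libraries alone the mean over member pairs was 0.419, and in the 47 deeper ones 0.531. On the deposited scores, from which no covariate was removed, it was 0.521, beside 0.579 on log2 CPM with no covariates. Removing 5 principal components of all features in place of the 2 covariates lowered the mean from 0.493 to 0.321. Removing 10 lowered it to 0.232. The values for all features were 0.00855 and 0.0045.

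The features outside the family with the most similar profile were ENSG00000179218 (r = 0.888), ENSG00000135486 (0.868), ENSG00000196230 (0.866), ENSG00000277957 (0.864) and ENSG00000111640 (0.862), over 93 lines and at least 20 rows from any member. ENSG00000111640, in row 2940, lies in the same stretch with a shift in counts. ENSG00000179218 had 36.5 to 101 CPM with a median of 59.6. High correlation with the family mean was thus not limited to its members.

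Nearly all members were higher in libraries with a wider dynamic range. In edgeR's quasi-likelihood test with library total in the model, 59 of 60 rose with dynamic range at an adjusted p under 0.05 and 0 fell. Of all features, 44.7% rose and 35.6% fell. The members' median slope was 1.18 log2 CPM per log2 unit of dynamic range, against 0.18 over all features, and all 60 slopes were above 0. Dynamic range ran from 4.17 to 4.99 log2 between libraries (SD 0.17). Dynamic range was computed from the same counts, and the test describes which features move with it.

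The size of the slope differed between members. It was highest in ENSG00000118181 (3.15 ± 0.63, SE, adjusted p = 4.49e-06), ENSG00000149273 (2.24 ± 0.31, adjusted p = 4.56e-10) and ENSG00000137154 (1.74 ± 0.21, adjusted p = 2.28e-12). The first and second of these lie in the stretch with a shift in counts. ENSG00000137154 does not, and its CPM ran from 11.3 over a median of 26 to 50.7. The lowest slopes were in ENSG00000166441 (0.28 ± 0.13, adjusted p = 0.0466), ENSG00000197756 (0.29 ± 0.11, adjusted p = 0.011) and ENSG00000089009 (0.50 ± 0.14, adjusted p = 0.00135). The member that missed the threshold was ENSG00000171858 (0.51 ± 0.30, adjusted p = 0.112), which has the lowest counts.

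Dynamic range is the gap in level between the top and bottom quintiles. A fall of the lowest quintile and a rise of the top one with it are thus partly built in. The members were therefore also set against features of their own level. In the lowest quintile most features fell with dynamic range: 57.9% fell and 14.5% rose. Of the 12 members in that quintile, 11 rose, and their median slope was 1.21 against -0.83 for the other features. In the second quintile 21 of 21 members rose, where 36.4% of features rose and 41.3% fell. In the upper quintiles the members went the way that more features went. In the third 19 of 19 members rose, with 48.9% of features rising and 32.9% falling, and in the fourth 7 of 7, with 58.1% and 25.5%. The 1 member of the top quintile rose, as did 65.6% of features there, while 20.4% fell. The members' median slope was 1.14 against 0.26 for features of the third quintile, and 0.81 against 0.44 in the fourth. Level here is per gene, so a short gene with dense marking and a long gene with sparse marking can share a quintile.

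**Figure D3:**
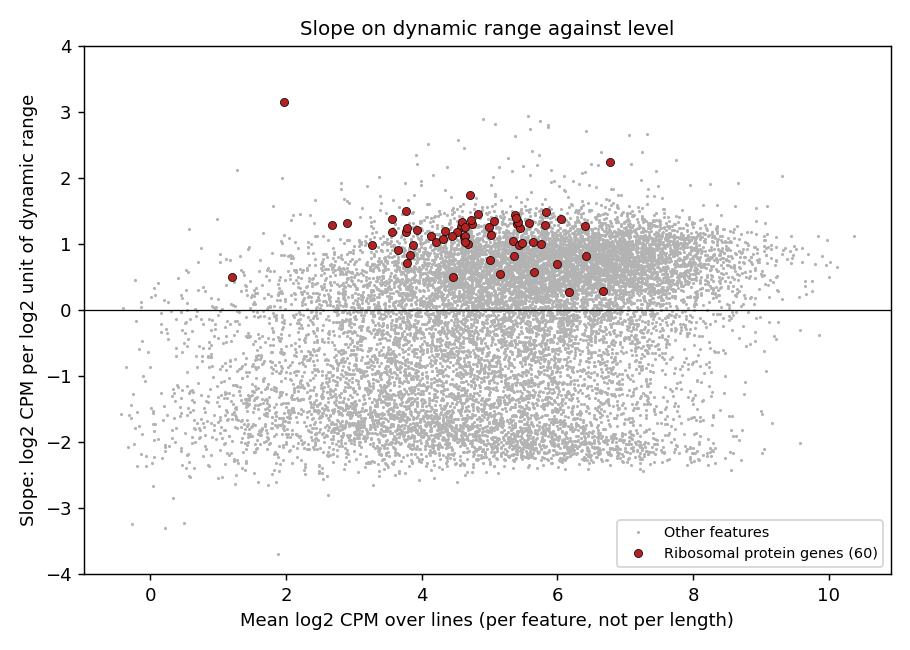
Slope on dynamic range (log2 CPM per log2 unit, vertical) against mean log2 CPM per feature (horizontal) for all 13915 features (grey) and the 60 ribosomal protein genes (red). All 60 lie above 0, at a median of 1.18, also in the lowest quintile of level, where the median feature lies at -0.83.

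Library total had a weaker and mixed relation with the members. With dynamic range in the model, 18 of 60 rose with log2 total and 7 fell, against 29.3% and 36.1% of all features (edgeR quasi-likelihood). The share that rose, 30%, was thus near that of all features, and the share that fell, 11.7%, was lower. The median slope was 0.03 log2 CPM per doubling of the total. Without dynamic range in the model the counts were 8 up and 29 down, against 30% and 31.2% of all features, so the relation with total depends on that term. In the 46 shallower libraries 9 rose and 0 fell, where 16.1% and 16.8% of all features did. In the 47 deeper ones 3 rose and 0 fell, against 11.9% and 16.8%.

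The share of members called variable was near that of all features, while the members' spread tended to lie above the median feature's. The coefficient of variation of CPM had a median of 0.231 over members, from 0.114 to 0.937, and of 0.205 over all features, and 42 of 60 members lay above the latter. By edgeR's goodness-of-fit test against the dispersion trend, with the 2 covariates, 12 of 60 members (20%) varied more than features of their count, against 18.4% of all features. The members' own dispersion relative to the trend had a median of -0.17 log2, against -0.56 over all features. It lay above the latter in 46 of 60. In the 46 shallower libraries alone the median coefficient of variation was 0.204 for members and 0.203 for all features. The dispersion medians there were -0.45 and -0.52. For the 47 deeper libraries these pairs were 0.206 and 0.179, and -0.05 and -0.61. The coefficient of variation was not matched for count. In 41 of 60 members every line was within 2-fold of the median, a share that was not computed over all features. The fold from the lowest to the highest line had a median of 2.96 over members and 2.85 over all features.

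Of the 12 called members, 3 lie in the stretch with a shift in counts, which holds 4 members, and 9 elsewhere. The 9 are 16.1% of the 56 members outside the stretch, near the 18.4% of all features called. The share of all features called inside the stretch was not computed. Among the 9 the largest excess was in ENSG00000198755 (dispersion 0.88 log2 above the trend, adjusted p = 9.89e-05). Its CPM was 11 in the lowest line, 24.3 in the median and 56.2 in the highest, so 1 line was above 2 times the median and 1 below 0.5 times. ENSG00000112306 followed (0.71, adjusted p = 0.00466), with 6.93, 13.6 and 29.8 CPM, and ENSG00000142937 (0.71, adjusted p = 0.00274) had 14.6, 28.8 and 48.4. ENSG00000177954, ENSG00000008988, ENSG00000142541, ENSG00000100316, ENSG00000163682 and ENSG00000140988 had excesses from 0.54 to 0.68. The last was closest to the threshold, with an adjusted p of 0.0458. ENSG00000142541 and ENSG00000100316 were also among the 5 members that followed the family most closely.

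The steadiest members for their count were ENSG00000116251, ENSG00000197756, ENSG00000083845, ENSG00000138326 and ENSG00000161970, with log2 ratios of own to trended dispersion of -1.86, -1.20, -1.13, -1.10 and -0.99. ENSG00000116251 had 63.3 CPM in its lowest line, a median of 85.3 and 118 in its highest, the narrowest span of the family at 1.87-fold. ENSG00000197756 had a coefficient of variation of 0.114, the lowest of the 60, with 52.2, 102 and 139 CPM. ENSG00000116251 still followed the other members (r = 0.635).

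**Figure D4:**
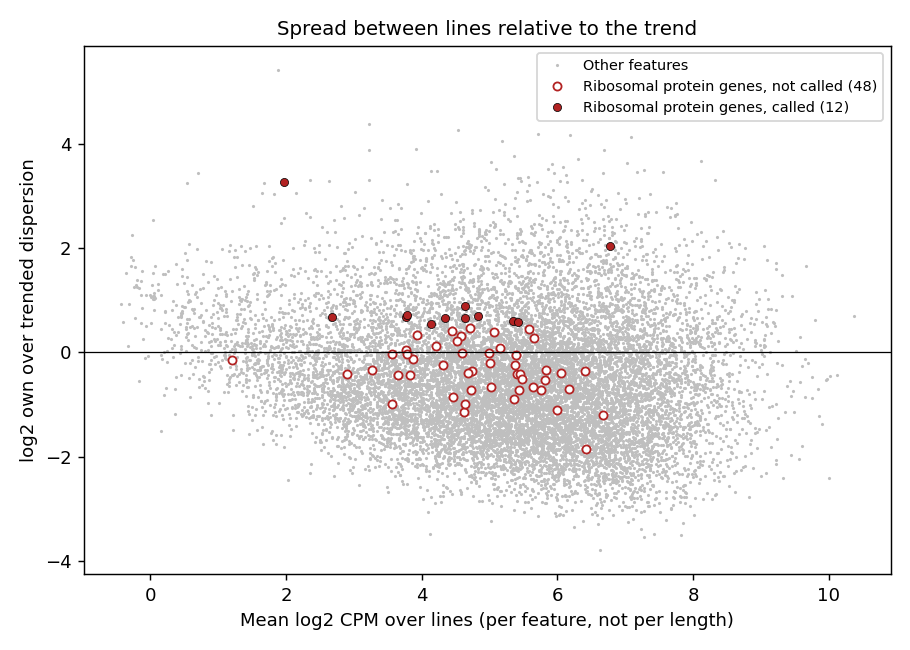
Own over trended dispersion (log2, vertical) against mean log2 CPM per feature (horizontal) for all features (grey) and the 60 ribosomal protein genes, filled where called by the goodness-of-fit test. The 12 called members include ENSG00000118181 and ENSG00000149273 at 3.26 and 2.03, and the other 10 lie between 0.54 and 0.88.

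The number of reads differed widely between members. The median count per line ran from 32 to 1459 over members, with a median of 362.5, against 608 over all features. The members with the highest median CPM were ENSG00000149273 (125), ENSG00000197756 (102), ENSG00000116251 (85.3), ENSG00000105372 (85.3) and ENSG00000166441 (72.4). Those with the lowest were ENSG00000171858 (2.25), ENSG00000118181 (3.05), ENSG00000177954 (6.18), ENSG00000122026 (7.44) and ENSG00000105193 (9.40). The median member stood 0.70 log2 CPM below the median feature, and the members' median was below that of all features in 92 of 93 lines. Interval length enters these values per gene, so they show where counts were few and not which gene was more densely marked.

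The stretch with a shift in counts runs from past row 1900 to row 3200, and 4 members lie in it. Counts there fall at a row that differs from library to library. The position was estimated from the 1286 other features of the stretch: the last row before the fall lay between rows 2017 and 3047, and the fall was 0.87 log2, or 1.83-fold. Each of the 4 genes was then compared between lines whose fall came after the gene's row and lines whose fall came before it. These 2 sets of lines come from the position of the fall in other features, and no test was made. CPM was compared without removing library total or dynamic range. Whether the position of the fall goes with library depth was not tested.

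ENSG00000118181, in row 2812, had 11.3 to 18.5 CPM with a median of 14.5 in the 15 lines whose fall came after it. It had 0.96 to 5.88 CPM with a median of 2.87 in the other 78 lines. The sets did not overlap, and the medians differed 5.06-fold. How many other features of the stretch separate or overlap in this way was not counted, here and for the genes below. ENSG00000118181 had the highest coefficient of variation of the family, 0.937 over all lines, but 0.151 and 0.305 within the sets. ENSG00000149273, in row 2639, had a median of 151 CPM (108 to 193) in 55 lines and of 69.8 (49.1 to 115) in 38, a 2.16-fold difference with a small overlap. Its coefficient of variation was 0.374 over all lines and 0.151 and 0.172 within the sets. Its median count was 2353 in the 55 lines and 693 in the 38.

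The other 2 lie before the fall in most lines. ENSG00000166441, in row 2165, had 53.9 to 106 CPM in 90 lines and 45 to 53.7 in 3, so the sets nearly met. Its median count was 1129.5 in the 90 lines and 220 in the 3. ENSG00000110700, in row 2207, had 5.87 to 25 CPM in 90 lines and 2.87 to 6.19 in 3, with a small overlap. Its median counts were 192.5 and 24. A set of 3 lines with fewer counts gives only a rough range. Of the 4 genes, ENSG00000166441 was the one not called variable. Without the rows of this stretch, the members' mean pairwise correlation was 0.504, 55 of 56 rose with dynamic range (44% of all features in that fit) and 12 of 56 were called variable (17.1% of all features), 9 of which were among the 12 above.

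**Figure D5:**
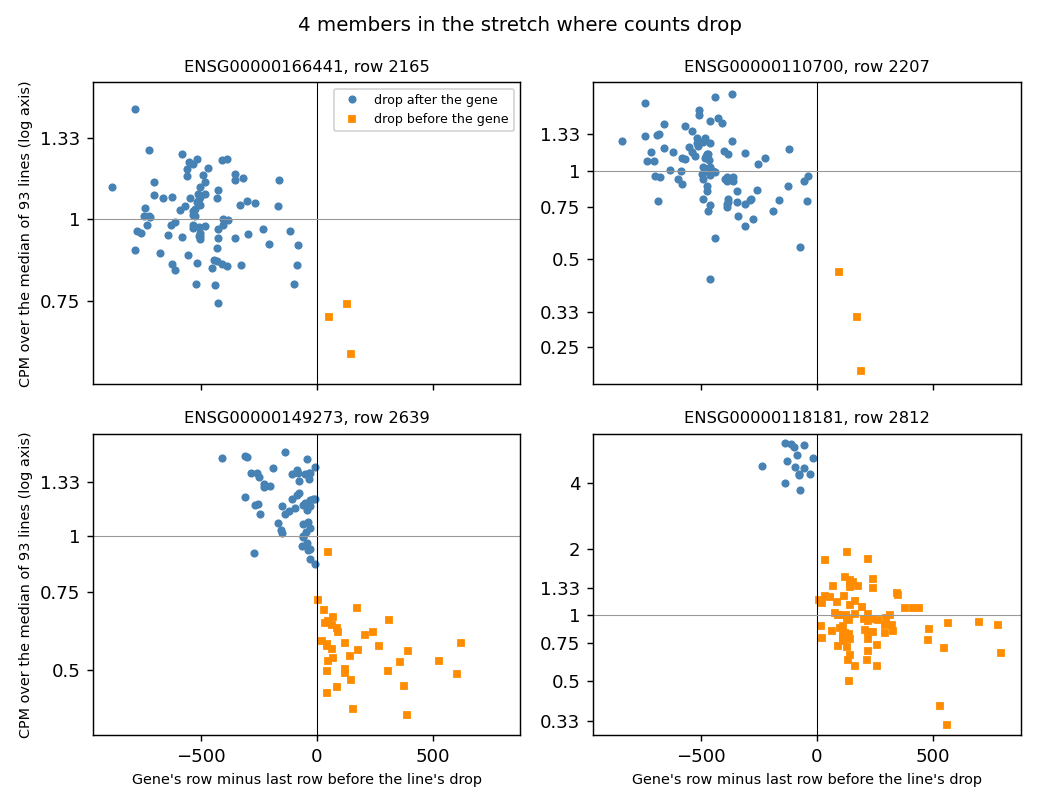
CPM of the 4 members in the stretch, each over its own median of 93 lines (vertical, log axis), against the gene's row minus the last row before that line's fall in counts (horizontal). Each point is a line; at positive values (orange squares) the fall came before the gene. ENSG00000118181 and ENSG00000149273 step down at 0, to medians 5.06-fold and 2.16-fold lower.

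The labels tell of 4 culture batches and not which line was grown in which, so batch could not be entered in a fit and no within-batch value is given. The part of batch in the shared movement of the members was not tested.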

How the data were processed

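H3K36me3 CUT&Tag was measured in 93 libraries, 1 per line. The authors deposited whole-number counts per feature and, for the same features, normal scores. HISAT2 2.2.1, bedtools and hg38 are named per the submitters' processing notes, without roles. The sources used here do not give the counted interval, the read filters or how the deposited scores were made. Counts were scaled with TMM factors (edgeR 4.0.16, 0.916 to 1.05) and expressed as CPM or log2 CPM with a prior count of 2. A feature was tested where 47 or more libraries held 10 or more counts for it.

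Each main fit took dynamic range and log2 library total as covariates. Extra spread was called with edgeR's goodness-of-fit test against the trended dispersion, and slopes with its quasi-likelihood test, with Benjamini-Hochberg adjustment over 13915 features at 0.05. Correlations used residual log2 CPM and carry no p. Library totals from 2842955 to 24325746 set the precision. The labels do not say whether lines were cultured more than once, so p-values measure the spread between these libraries.

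Members named are the 5 highest and lowest by level, dispersion ratio and correlation with the mean of the other 59 members, the 10 called members with the highest ratio (the remaining 2 are named as well), the 3 extreme pairs and slopes, and the 5 most similar other features. Members and lists were chosen with earlier results of these data known. Symbol lists of other pathways and of cell type markers, and lengths, were not used, since identifiers could not be matched. Scripts were tested on simulated data. Alternatives included DESeq2 1.42.0, other filters, covariates and depth classes (R 4.3.3, Python 3.11.15).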

Additional observations from a re-analysis of the deposited data

How the results depend on the processing

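The comparison with features within 100 rows and the removal of 10 principal components were chosen after seeing the data. Of 75 alternative values, 65 were counts within 1.5 times of that reported or values that moved by less than 1 SD over members (levels: over lines), and 10 moved further. For the coefficient of variation (SD 0.104, medians 0.231 for members and 0.205 for all features) that SD was wider than the gap between the medians. The same held for the dispersion ratio (SD 0.784, medians -0.17 and -0.56). For these measures a move under 1 SD does not show that the gap was kept. The mean pairwise correlation of members was 0.493, and 0.321 with 5 and 0.232 with 10 principal components removed, which take out shared movement by construction. Members rising with dynamic range numbered 46 to 58 of 60 (55 of 56 without the stretch), against 28.4% to 44.2% of all features. The fewest were in the 46 shallower libraries, where 28.4% of all features rose. In each alternative run 0 members fell, against 31.8% to 36.8% of all features. Members rising with library total were 9 in the 46 shallower libraries, 3 in the 47 deeper and 8 with total as the only covariate, against 18 (16.1%, 11.9% and 30% of all features); members falling were 0, 0 and 29, against 7 (16.8%, 16.8% and 31.2% of all features); the cause was not tested, and the depth classes have fewer libraries. Members called variable were 3 in the 46 shallower libraries (14% of all features) and 1 by DESeq2's dispersion outliers (1.83% of all features), against 12; the latter is a stricter criterion by construction. With the intercept only 12 of 60 members were called (22.7% of all features), and with 5 principal components 11 of 60 (18.6%). In each of these fits 9 of the 12 above were called again. The members' median dispersion ratio was 0.00364 with the intercept only, against -0.17. That of all features rose as well, to -0.34 from -0.56. Lengths were lacking, so levels per kilobase were not run. Depth limits the members with few counts, 3 to 81 per line in the lowest.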
